A study of Saccharomyces cerevisiae W303 with 86 samples.

Results

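Ethidium bromide treatment of wild type yeast was examined in 6 of the 86 samples of the series, all of them mRNA libraries of the strain W303-1A, a haploid laboratory strain of Saccharomyces cerevisiae. The samples were taken by their titles: 3 libraries of wild type cells given 25 µg/ml ethidium bromide for 48 h (EB cells) and 3 libraries of untreated wild type cells (WT cells) from the same set. All cells carried the wild type SNF1 gene and, per the labels, were grown in synthetic complete medium with 2% glucose to mid-log phase, and polyA RNA was sequenced. That growth note is the same for every sample of the series, and neither the glucose left in the medium nor a density of the EB cultures after the 48 h is given in the sources used here. The series as a whole compares yeast that cannot carry out oxidative phosphorylation with wild type yeast. For comparison, 3 libraries of snf1D cells with the same treatment and 3 of untreated snf1D cells were used, snf1D being a deletion of the gene for the Snf1 kinase. Also used were 3 sets of 3 r0 and 3 WT libraries, where r0 stands for rho0, a strain without mitochondrial DNA, each set with its own WT libraries. These sets are called the PUF3, Puf3-15A and INH1 sets after the gene the rest of each set is about.

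Ethidium bromide slides between the stacked bases of DNA and, in yeast, blocks the copying of mitochondrial DNA more strongly than that of nuclear DNA, so growing cells lose the mitochondrial genome. That genome codes for a few core subunits of respiratory complexes III and IV and of the ATP synthase, for the mitochondrial ribosomal protein Var1 and for the mitochondrial rRNAs, while the nuclear genome codes for all other mitochondrial proteins. Yeast without mitochondrial DNA cannot respire but grows by fermentation on glucose, a sugar whose abundance normally keeps the genes of respiration, of other carbon sources and of high-affinity sugar uptake low. The Snf1 kinase, the yeast AMP-activated kinase, relieves that repression when glucose runs low.

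The EB libraries held 10459203 to 12066023 reads and the WT libraries 9138061 to 10296626 reads. RPKM values, read numbers divided by gene length and library size, were rescaled between libraries by trimmed means and compared with limma as log2(RPKM + 1), which understates the change of genes near 1 RPKM. Adjusted p-values below are Benjamini-Hochberg values over all 6776 features tested, a change was called at an adjusted p under 0.05, and log2 differences are EB minus WT with the standard error (SE) of the fit. The libraries of 1 group agreed closely, with a median SD on the log2 scale of 0.0867 over 6064 genes in EB cells and 0.0611 in WT cells. Of the features tested, 4880 were called (72.0%), 2372 of them higher (35.0%) and 2508 lower (37.0%) in EB cells, with a median log2 difference over all features of -0.00069, and for 5337 (78.8%) the 3 EB and the 3 WT libraries did not overlap. A count of list members is read against these shares. The even split and the median near 0 depend on the rescaling, which centres the differences. With the RPKM as deposited, 2117 features were called higher and 2695 lower, with a median of -0.0606. By more than 1 on the log2 scale, 705 features were higher and 751 lower.

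Some properties of the libraries bear on the comparisons. The files of the EB and snf1D EB libraries share one layout, with columns headed r0, and those of the WT and snf1D libraries another, so file layout and treatment cannot be told apart. The summed level of 7 genes specific to mating type a, the mating type of W303-1A, was 1172.734 to 1347.61 RPKM in EB cells and 2256.621 to 2454.892 RPKM in WT cells, but only 36.601 to 42.317 RPKM in snf1D EB cells and 22.939 to 42.102 RPKM in snf1D cells, with no marker at 0 throughout a group. In the r0 libraries of the PUF3, Puf3-15A and INH1 sets the sums were 2529.445 to 2787.109, 2521.688 to 2646.169 and 2069.985 to 2160.221 RPKM, against 566.358 to 830.487, 2765.299 to 2934.878 and 20.255 to 27.203 RPKM in their WT libraries. The snf1D libraries and the WT libraries of the INH1 set thus went against the mating type of the strain on their label, and only in the Puf3-15A set did r0 and WT have like levels. In the PUF3 set, replicate 1 of r0 and of WT stood apart from their replicates 2 and 3. Counts of genes called against r0 are therefore given with and without the INH1 set. SNF1 itself was at most 0.432 RPKM in the 6 libraries labelled snf1D.

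Transcripts of the mitochondrial genome were almost absent from EB cells. The 8 mitochondrial protein-coding genes together had 0, 0 and 2 reads in the EB libraries, against 255, 233 and 213 reads in the WT libraries. COX1, the largest subunit of cytochrome c oxidase, had 0, 0 and 2 reads in EB cells, against 150, 142 and 85 reads in WT cells. OLI1, the ring subunit of the ATP synthase, had no read in any EB library, against 68, 49 and 98 reads in WT cells. The groups did not overlap for either gene. Relative to the reads of the libraries, COX1 was 219.9-fold lower in EB cells (95% counting interval 60.46 to 1823) and OLI1 at least 83.62-fold lower, with 3 reads over the EB group taken as the limit that a count of 0 allows.

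COX2, a second oxidase subunit, had no read in EB cells, against 19, 18 and 14 reads in WT cells, and was at least 19.83-fold lower. The small and large mitochondrial rRNAs showed the same pattern at higher counts. The 15S rRNA had no read in EB cells, against 128, 155 and 83 reads in WT cells, and the 21S rRNA had 1 read in each EB library, against 622, 612 and 438 reads in WT cells. The 15S rRNA was thus at least 142.3-fold lower, and the 21S rRNA was 650.3-fold lower (95% counting interval 222.1 to 3156). Yeast mitochondrial mRNAs carry no poly(A) tails, so polyA libraries hold few of them, and COX3, COB, ATP6, ATP8 and VAR1 had at most 9 reads in any WT library and none in EB cells. COX1, COX2 and OLI1 were the 3 of the 8 that passed the filter on low values (1 RPKM in 3 of the 12 libraries of the fit), with fitted log2 differences, which depend on the pseudocount, of -3.15, -1.77 and -5.06. Reading frames annotated in the introns of COX1, and one beside COX2, overlap these genes. The intervals cover counting error only. In a bulk culture, fewer cells with mitochondrial RNA and less of it per cell cannot be told apart.

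**Figure D1:**
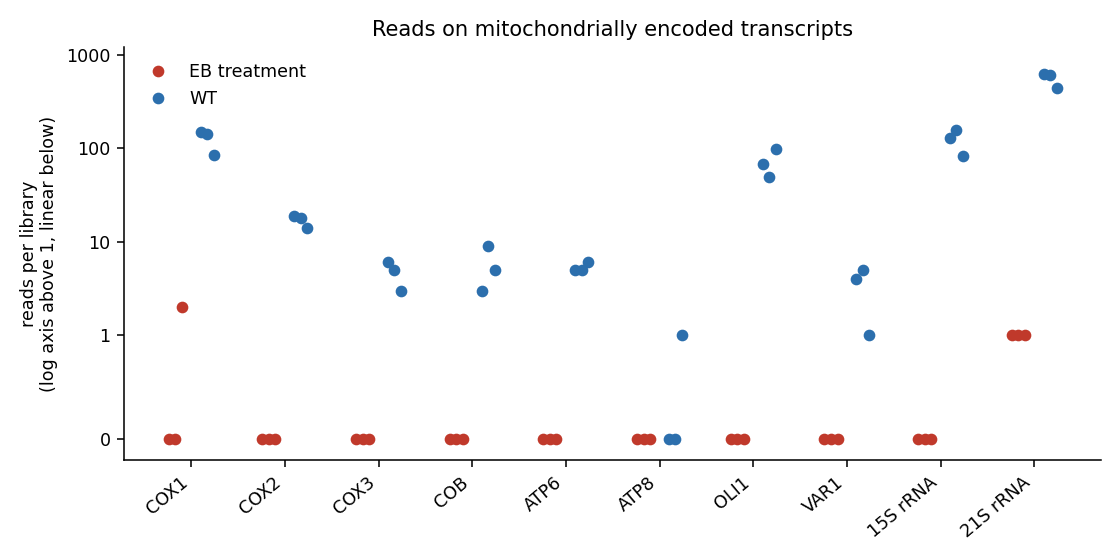
Reads per library on the 8 mitochondrial protein-coding genes and the 2 mitochondrial rRNAs (vertical axis, logarithmic above 1 and linear below), with 3 EB libraries left of 3 WT libraries for each gene. EB libraries had 0 reads for most genes and at most 2 for any, while the 21S rRNA had 438 to 622 reads in the WT libraries.

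Genes that maintain and transcribe mitochondrial DNA were mostly lower, with 12 of 20 measured members called lower and 4 higher (median log2 difference -0.33). NUC1, the major mitochondrial nuclease (chromosome X, 40194 to 41183 of build R64), had 22.1, 27.1 and 26.4 RPKM in EB cells, against 85.2, 80.3 and 87.8 RPKM in WT cells, a log2 difference of -1.64 ± 0.076 (SE, adjusted p = 1.04e-09). MGM101, a recombination protein of mitochondrial nucleoids, had 52.2, 57.6 and 57.4 RPKM in EB cells, against 129, 119.9 and 132 RPKM in WT cells, a difference of -1.10 ± 0.074 (SE, adjusted p = 3.14e-08). For both, every EB library was below every WT library. YHM2, a mitochondrial citrate carrier that also binds mitochondrial DNA, fell (-1.43 ± 0.088), as did PIF1, a DNA helicase shared by nucleus and mitochondria, which averaged 14.3 ± 1.12 RPKM in EB cells and 31.0 ± 2.14 RPKM in WT cells (SD, n = 3 each).

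RPO41, the mitochondrial RNA polymerase (chromosome VI, 58782 to 62837), moved the other way. It had 81.3, 78.9 and 69.1 RPKM in EB cells, against 38.2, 41.5 and 35.5 RPKM in WT cells, a difference of 1.04 ± 0.084 (SE, adjusted p = 1.88e-07), with no overlap between groups. MHR1, which pairs DNA strands in mitochondrial recombination, and NTG1, a base excision repair enzyme, also rose (0.52 ± 0.076 and 0.42 ± 0.078). ABF2, the packaging protein of mitochondrial DNA, averaged 283 ± 14.1 RPKM in EB cells and 325 ± 9.53 RPKM in WT cells (SD, n = 3 each), and its difference of -0.13 ± 0.057 (SE, adjusted p = 0.0562) did not pass the threshold, although without EB replicate 1 it did (-0.17, adjusted p = 0.0262).

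The mitochondrial translation apparatus, which has almost nothing left to translate once mitochondrial DNA is lost, was modestly higher. Of 41 measured proteins of the large mitochondrial ribosomal subunit 29 rose and the other 12 did not pass the test (median 0.27), and of 32 small-subunit proteins 25 rose and 1 fell (median 0.28). Among 20 translation factors and mitochondrial tRNA synthetases, 15 rose and 1 fell (2 without WT replicate 2; median 0.38). RSM10, a small-subunit protein, had 216, 204 and 211 RPKM in EB cells, against 116, 115 and 118 RPKM in WT cells, a difference of 0.91 ± 0.052 (SE, adjusted p = 6.98e-09). MRP20, a large-subunit protein, had 148, 140.2 and 128 RPKM in EB cells, against 88.3, 81.0 and 84.6 RPKM in WT cells, a difference of 0.78 ± 0.067 (SE, adjusted p = 3.63e-07). In both genes the EB libraries lay above all WT libraries. The exceptions within these lists were RSM22, a small-subunit methyltransferase-like protein (-0.58 ± 0.055), and MEF2, a mitochondrial protein related to elongation factor G (-0.39 ± 0.092), both lower in EB cells.

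Proteins that help translate or mature mitochondrial mRNAs, many of them specific to 1 mRNA, followed the same direction in 9 of 18 cases, with 2 lower (median 0.20). CBP6, which acts on COB mRNA, had 158, 151 and 154 RPKM in EB cells, against 81.6, 81.8 and 92.2 RPKM in WT cells, a difference of 0.92 ± 0.065 (SE, adjusted p = 5.06e-08). PET494, an activator of COX3 translation, rose by 0.87 ± 0.072. CBP1, which stabilises COB mRNA, was lower in every EB library (-0.55 ± 0.071).

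Nuclear genes of the respiratory chain split by complex. Of 14 nuclear subunits of the ATP synthase, 13 fell (median -0.82). Of 10 subunits of complex IV, cytochrome c oxidase, 6 fell and 2 rose. Complex III changed least, with 3 of 9 subunits lower, near the 37.0% of all features, and a median of -0.14. Without EB replicate 1, 5 were called lower. ATP3, the central stalk subunit of the ATP synthase, had 162, 152 and 156 RPKM in EB cells, against 349, 344 and 363 RPKM in WT cells, a difference of -1.09 ± 0.066 (SE, adjusted p = 1.25e-08). ATP5, of the peripheral stalk, fell likewise (-1.02 ± 0.077).

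COX4, a core nuclear subunit of complex IV, had 176, 148 and 142 RPKM in EB cells, against 318, 322 and 349 RPKM in WT cells, a difference of -1.02 ± 0.081 (SE, adjusted p = 1.54e-07). COX5B, the isoform of subunit 5 made when oxygen is low, had 268, 224 and 263 RPKM in EB cells, against 89.7, 88.4 and 92.4 RPKM in WT cells, a difference of 1.54 ± 0.10 (SE, adjusted p = 1.51e-08). Its aerobic counterpart COX5A fell (log2 difference -0.80 ± 0.094). The isoforms thus moved in opposite directions. COX26, a small protein found with the respiratory supercomplexes, had 588, 458 and 496 RPKM in EB cells, against 21.7, 23.8 and 27.8 RPKM in WT cells, a difference of 4.41 ± 0.38 (SE, adjusted p = 3.86e-07). The 2 exceptions in complex IV were thus larger than any of the falls, and the groups of COX5B and COX26 did not overlap. COX5A was named here after its value was seen, as the partner of COX5B.

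Small proteins that bind the ATP synthase moved in opposite directions. STF1 and STF2, both known as stabilisers of the inhibited ATPase, rose, STF2 with 2251, 1906 and 2228 RPKM in EB cells, against 227, 251 and 274 RPKM in WT cells and a difference of 3.15 ± 0.12 (SE, adjusted p = 2.01e-10). INH1, the inhibitor that stops the enzyme from hydrolysing ATP, fell, with 122, 105 and 104 RPKM in EB cells, against 316, 359.5 and 348 RPKM in WT cells and a difference of -1.56 ± 0.11 (SE, adjusted p = 5.98e-08). In both, the 3 EB libraries stood clear of the 3 WT libraries. PET9, the main ADP/ATP carrier of the inner membrane, also fell (-0.76 ± 0.088).

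Enzymes of complex II and the tricarboxylic acid cycle rose in 14 of 16 cases, with 1 lower (median 0.56). CIT1, mitochondrial citrate synthase, had 676, 611 and 581 RPKM in EB cells, against 232, 247 and 250.3 RPKM in WT cells, a difference of 1.42 ± 0.066 (SE, adjusted p = 1.15e-09). IDH2, a subunit of NAD-dependent isocitrate dehydrogenase, had 761, 734 and 678 RPKM in EB cells, against 368, 383 and 406 RPKM in WT cells, a difference of 0.98 ± 0.077 (SE, adjusted p = 1.52e-07). Several of these enzymes are targets of the retrograde pathway, which signals mitochondrial dysfunction to the nucleus, and 5 of 7 retrograde targets rose (median 0.84). Of those 5, CIT1, ACO1, IDH1 and IDH2 are also counted among the enzymes above, the other being PYC1 (0.92 ± 0.10). The target DLD3 did not pass the test (-0.096 ± 0.11, adjusted p = 0.458). ACO1 and DLD3 were named after their values were seen. CIT2, the peroxisomal citrate synthase and the best known reporter of that pathway, did not pass it either. It had 133, 228 and 327 RPKM in EB cells, against 265, 271 and 308 RPKM in WT cells, the groups overlapped, and the difference of -0.32 ± 0.23 (SE, adjusted p = 0.226) was 0.0273 without EB replicate 1 (adjusted p = 0.859) and -0.62 without EB replicate 3 (adjusted p = 0.0068).

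Dehydrogenase genes, among them electron donors to the chain, and genes of cofactor synthesis were mostly higher as well. Of 9 dehydrogenases of NADH, glycerol phosphate and lactate, 7 rose (median 1.35). CYB2, the lactate dehydrogenase that passes electrons to cytochrome c, had 713, 556 and 522 RPKM in EB cells, against 29.4, 30.6 and 30.4 RPKM in WT cells, a difference of 4.32 ± 0.13 (SE, adjusted p = 5.70e-11). GUT2, mitochondrial glycerol-3-phosphate dehydrogenase, had 216, 171 and 143 RPKM in EB cells, against 22.2, 25.4 and 25.6 RPKM in WT cells, a difference of 2.86 ± 0.13 (SE, adjusted p = 1.13e-09). The EB values of both were several times the WT values in every library. Of 11 genes of coenzyme Q synthesis 9 rose (median 0.56), and of 34 assembly factors of the complexes 29 rose and 2 fell (median 0.53). OXA1, the inner membrane insertase, was one of those that fell (-0.38 ± 0.052).

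Of 32 protein import genes 7 were higher and 12 lower, against 35.0% and 37.0% of all features. MIA40, the oxidoreductase of the intermembrane space, rose by 0.94 ± 0.083, while PAM18, part of the import motor, and TOM71, a receptor of the outer membrane, fell (-0.62 ± 0.056 and -0.54 ± 0.062). Mitochondrial chaperones and proteases rose in 9 of 12 cases, HSP78, which dissolves aggregates in the matrix, most clearly. It had 350.1, 358 and 387 RPKM in EB cells, against 78.7, 87.1 and 94.0 RPKM in WT cells, a difference of 2.13 ± 0.092 (SE, adjusted p = 6.31e-10), and no EB library came near a WT library. Of 15 iron-sulfur cluster genes 5 were higher and 5 lower, close to the shares of all features (35.0% and 37.0%). ATM1, the exporter of the mitochondrial inner membrane, fell (-0.91 ± 0.075).

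**Figure D2:**
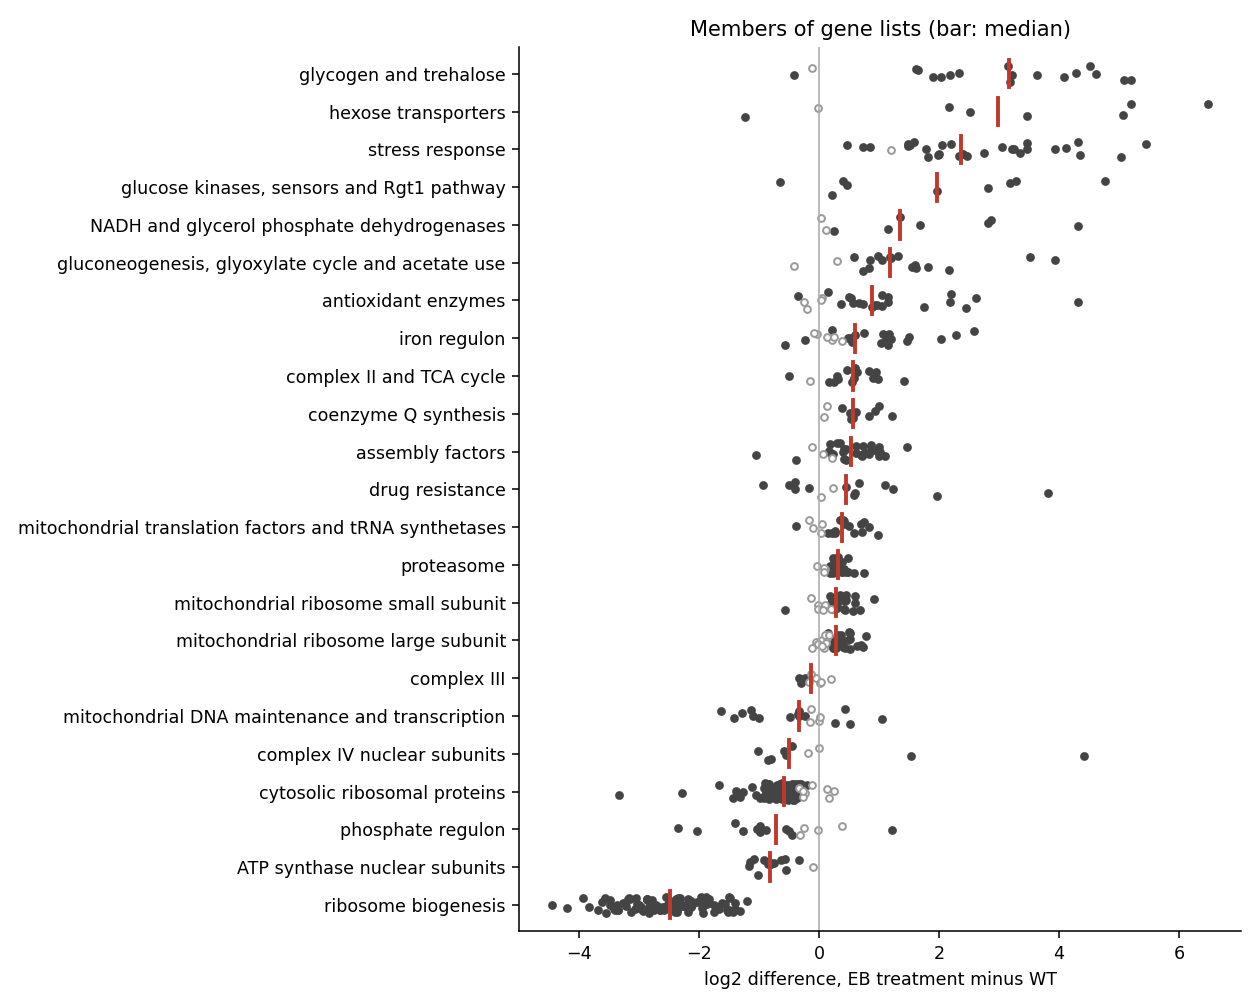
Log2 difference, EB treatment minus WT (horizontal axis), of each tested member of 23 gene lists (rows). Filled points have an adjusted p under 0.05, open points do not, and the bar is the list median, from 3.16 for glycogen and trehalose genes to -2.49 for ribosome biogenesis genes.

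Genes of sugar uptake and phosphorylation changed by large amounts. No measured glucose level or culture density at harvest is at hand to set beside these genes, or beside those of glucose repression, carbon storage, stress and ribosome production described next. Of 8 measured hexose transporters 6 rose and 1 fell (median 2.99), and of 9 genes for glucose kinases, invertase and glucose sensing 8 rose and 1 fell (median 1.97). HXT4, a transporter of medium to high affinity (chromosome VIII, 287081 to 288811 of build R64), had 1886, 1579 and 1349.6 RPKM in EB cells, against 49.1, 53.6 and 44.8 RPKM in WT cells, a difference of 5.06 ± 0.12 (SE, adjusted p = 2.34e-11). HXT6 (chromosome IV, 1159608 to 1161320 of build R64) had the largest rise among the genes named by size, with 243, 192 and 186 RPKM in EB cells, against 1.42, 1.94 and 1.09 RPKM in WT cells and a difference of 6.49 ± 0.19 (SE, adjusted p = 5.65e-11). HXT7, its neighbour, had 477, 394 and 372 RPKM in EB cells, against 10.1, 12.7 and 9.97 RPKM in WT cells, a difference of 5.19 ± 0.25 (SE, adjusted p = 1.59e-09). Both code for nearly identical high-affinity transporters, so the split of reads between them is uncertain, but each was higher in every EB library.

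HXT2, a high-affinity transporter, had 2662, 1992 and 1744 RPKM in EB cells, against 284, 227 and 122 RPKM in WT cells, a difference of 3.46 ± 0.29 (SE, adjusted p = 3.07e-07). HXT3, a low-affinity transporter, had 2597, 2439.7 and 2265 RPKM in EB cells, against 566, 577 and 552 RPKM in WT cells, a difference of 2.17 ± 0.16 (SE, adjusted p = 8.95e-08). HXT1, the transporter of lowest affinity, was the exception and was lower in each EB library, with 127, 141 and 159.7 RPKM in EB cells, against 353, 359 and 350.1 RPKM in WT cells and a difference of -1.24 ± 0.14 (SE, adjusted p = 3.38e-06). HXT2 and HXT3 were named after their values were seen, to complete the family. The rise thus took in transporters of high and low affinity, HXT1 fell, and HXT8 did not pass the test.

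HXK1, the hexokinase isoform repressed by glucose, had 3236, 2578 and 2270.3 RPKM in EB cells, against 92.4, 109 and 104 RPKM in WT cells, a difference of 4.77 ± 0.15 (SE, adjusted p = 6.43e-11). GLK1, glucokinase, had 1584, 1387 and 1331 RPKM in EB cells, against 141, 154 and 164 RPKM in WT cells, a difference of 3.28 ± 0.10 (SE, adjusted p = 5.65e-11). Neither overlapped between the groups, and the GLK1 annotation overlaps that of YCL042W. HXK2, the isoform used in glucose-rich medium, had a much smaller difference of 0.40 ± 0.10 (SE, adjusted p = 0.00319). SUC2, invertase, a classic glucose-repressed gene, had 287, 197 and 150.0 RPKM in EB cells, against 27.7, 28.6 and 32.9 RPKM in WT cells, a difference of 2.81 ± 0.19 (SE, adjusted p = 3.09e-08). HXK2 and SUC2 were also chosen after their values were seen.

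Among the glucose sensing genes, SNF3, the sensor of low glucose, rose by 1.97 ± 0.10. MTH1, a co-repressor of hexose transporter genes, had 267, 273 and 257 RPKM in EB cells, against 28.6, 32.5 and 28.4 RPKM in WT cells, a difference of 3.19 ± 0.093 (SE, adjusted p = 5.13e-11). STD1, its paralog, had 32.6, 36.6 and 40.9 RPKM in EB cells, against 54.1, 60.8 and 67.8 RPKM in WT cells, a difference of -0.65 ± 0.11 (SE, adjusted p = 1.62e-04). The paralogs therefore moved apart, without overlap in either.

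**Figure D3:**
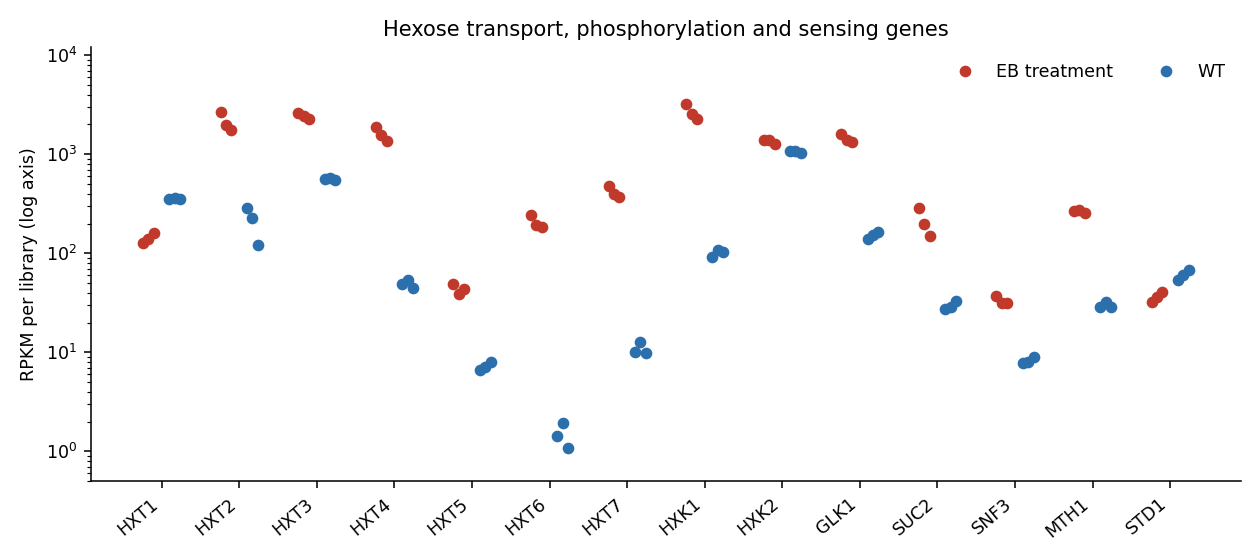
RPKM per library on a log axis for hexose transporters (HXT), hexose kinases (HXK1, HXK2, GLK1), invertase (SUC2) and glucose sensing genes (SNF3, MTH1, STD1), 3 EB libraries left of 3 WT libraries. HXT1 and STD1 were lower in the EB libraries and the other genes drawn were higher.

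Regulators of the glucose response themselves changed by smaller amounts. Of 17 genes for the Snf1 complex and the glucose repressors 10 rose and 4 fell. MIG1, the main repressor of glucose-repressed genes, had 124, 119 and 117 RPKM in EB cells, against 79.9, 70.8 and 63.6 RPKM in WT cells, a difference of 0.82 ± 0.093 (SE, adjusted p = 4.87e-06). SIP2, a beta subunit of the Snf1 complex, and REG1, which guides the phosphatase that switches Snf1 off, rose by 1.14 ± 0.075 and 0.81 ± 0.065. NRG2, a repressor related to MIG1 in function, fell (-1.13 ± 0.13), as did ELM1, an upstream kinase of Snf1 (-1.03 ± 0.13).

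Of 9 activators of respiration and non-fermentable carbon use 7 rose and 2 fell. CAT8, the activator of gluconeogenic genes, had 32.6, 25.9 and 26.9 RPKM in EB cells, against 4.90, 5.50 and 4.50 RPKM in WT cells, a difference of 2.37 ± 0.12 (SE, adjusted p = 1.91e-09). HAP4, the limiting activator of respiratory genes, had 318, 338 and 334 RPKM in EB cells, against 149, 172 and 168 RPKM in WT cells, a difference of 1.08 ± 0.091 (SE, adjusted p = 2.76e-07). ADR1, the activator of alcohol and fatty acid use, rose by 1.37 ± 0.13. All 3 EB libraries were above all WT libraries for these activators.

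Of 18 genes that make sugar from non-sugar carbon, run the glyoxylate cycle or use acetate 16 rose (median 1.19), but most stayed at low levels. ALD4, mitochondrial aldehyde dehydrogenase, was the exception, with 904, 698 and 635 RPKM in EB cells, against 48.6, 47.4 and 52.8 RPKM in WT cells and a difference of 3.94 ± 0.14 (SE, adjusted p = 1.24e-10). REG2, a partner of the phosphatase Glc7, averaged 34.4 ± 11.8 RPKM in EB cells and 2.16 ± 0.194 RPKM in WT cells (SD, n = 3 each), a difference of 3.52 ± 0.23 (SE, adjusted p = 2.23e-08). ADY2, an acetate transporter, averaged 7.64 ± 1.46 RPKM in EB cells and 1.61 ± 0.450 RPKM in WT cells (SD, n = 3 each), a difference of 1.81 ± 0.19 (SE, adjusted p = 2.67e-06). Glycolytic genes rose in 12 of 16 cases (median 0.45). TDH1, the minor isoform of glyceraldehyde-3-phosphate dehydrogenase, had 2195, 2368 and 2653 RPKM in EB cells, against 137, 182 and 188 RPKM in WT cells, a difference of 3.90 ± 0.13 (SE, adjusted p = 7.77e-11), well above the 0.85 ± 0.14 of the isoform TDH2.

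Storage carbohydrate genes had the highest median of all 48 lists. Of 18 genes of glycogen and trehalose metabolism 16 rose and 1 fell (median 3.16). GSY1, glycogen synthase, had 648, 585 and 628 RPKM in EB cells, against 14.0, 17.8 and 18.5 RPKM in WT cells, a difference of 5.21 ± 0.11 (SE, adjusted p = 1.10e-11). PGM2, the main phosphoglucomutase, had 1425, 1195 and 1226 RPKM in EB cells, against 33.2, 41.3 and 42.2 RPKM in WT cells, a difference of 5.08 ± 0.13 (SE, adjusted p = 2.34e-11). TSL1, a subunit of trehalose synthase, had 661, 632 and 607 RPKM in EB cells, against 31.1, 34.3 and 33.8 RPKM in WT cells, a difference of 4.29 ± 0.12 (SE, adjusted p = 3.90e-11). Every EB library exceeded every WT library many times over in all 3 genes. Genes for breakdown rose beside those for synthesis, such as GDB1, the glycogen debranching enzyme (4.08 ± 0.11). PGM1, the minor phosphoglucomutase, was the member that fell (-0.42 ± 0.066).

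Stress genes followed, with 29 of 30 higher (median 2.36). HSP12, a membrane-protecting heat-shock protein, had 2640.3, 2275 and 2569.5 RPKM in EB cells, against 259, 274 and 293 RPKM in WT cells, a difference of 3.24 ± 0.35 (SE, adjusted p = 3.32e-06). CTT1, cytosolic catalase, had 431, 436 and 504 RPKM in EB cells, against 22.0, 22.4 and 25.2 RPKM in WT cells, a difference of 4.31 ± 0.20 (SE, adjusted p = 1.30e-09). TMA10, a ribosome-associated protein, had 3972, 2903 and 2839 RPKM in EB cells, against 81.5, 94.7 and 56.2 RPKM in WT cells, a difference of 5.45 ± 0.21 (SE, adjusted p = 2.97e-10). No group overlapped in these genes, and the 3 EB libraries of HSP12 spread more than its WT libraries. Antioxidant enzymes rose in 20 of 25 cases (median 0.88), among them PRX1, mitochondrial peroxiredoxin (2.19 ± 0.089), and GRX2, a glutaredoxin whose annotation overlaps that of EMI1 (1.74 ± 0.10). CCS1, the copper chaperone of superoxide dismutase, fell (-0.35 ± 0.054).

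Other genes among the 12 largest rises had varied roles. RCK1, a protein kinase of the oxidative stress response, had 196, 204 and 193 RPKM in EB cells, against 3.16, 2.29 and 1.92 RPKM in WT cells, a difference of 5.95 ± 0.23 (SE, adjusted p = 2.38e-10). RGI1, a protein of energy metabolism under respiratory growth, had 2738, 2042 and 2243 RPKM in EB cells, against 43.6, 52.1 and 44.6 RPKM in WT cells, a difference of 5.68 ± 0.17 (SE, adjusted p = 5.70e-11). EGO4, a small protein of unknown function, had 844, 731 and 1008 RPKM in EB cells, against 15.0, 16.8 and 15.1 RPKM in WT cells, a difference of 5.76 ± 0.26 (SE, adjusted p = 9.53e-10). These were among the widest separations of the 2 groups. ZNF1, a zinc cluster regulator of respiratory growth genes, SPG4, a protein of stationary-phase survival, and DDR2, a multistress protein, rose by 4.92 ± 0.15, 5.13 ± 0.53 and 5.03 ± 0.47.

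Ribosome production was the group of nuclear genes with the lowest median. All 95 of 95 measured ribosome biogenesis genes, which process pre-rRNA and assemble pre-ribosomes in the nucleolus, were called lower, with a median of -2.49 and a range of -4.45 to -1.20. SSF1, a large-subunit assembly factor (chromosome VIII, 229335 to 230696 of build R64), had 2.04, 3.59 and 3.35 RPKM in EB cells, against 88.1, 86.5 and 87.2 RPKM in WT cells, a difference of -4.45 ± 0.14 (SE, adjusted p = 7.04e-11). NOG2, a GTPase that releases pre-60S particles for export, had 5.24, 7.26 and 8.42 RPKM in EB cells, against 157, 145 and 149 RPKM in WT cells, a difference of -4.21 ± 0.13 (SE, adjusted p = 5.70e-11). DBP7, an RNA helicase of the large subunit, had 2.14, 3.09 and 3.19 RPKM in EB cells, against 42.7, 41.1 and 44.1 RPKM in WT cells, a difference of -3.50 ± 0.11 (SE, adjusted p = 5.70e-11). In each, the EB libraries lay in the single digits of RPKM and the WT libraries far above.

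Among called genes with a mean log2 level of at least 3, the 12 largest falls were those of SSF1, NOG2, SFG1, SLM6, TRM11, BFR2, REI1, DBP8, MAK16, REX4, RSA4 and CGR1, with log2 differences from -4.45 to -3.71. The mitochondrial OLI1 and 21S rRNA lay below that level. BFR2, REI1, DBP8, MAK16, REX4, RSA4 and CGR1 code for ribosome assembly or rRNA processing proteins and TRM11 for a tRNA methyltransferase. The annotations of SLM6 and REI1 overlap, and their reads cannot be told apart because the counting is not stated to use strand. SFG1, a regulator of pseudohyphal growth, had 6.34, 5.89 and 7.26 RPKM in EB cells, against 129, 134 and 147 RPKM in WT cells, a difference of -4.15 ± 0.086 (SE, adjusted p = 1.10e-11). It was outside the ribosome group and fell as far.

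The proteins of the cytosolic ribosome itself followed with smaller falls, 129 of 137 genes being lower (median -0.59). RPS22B had 57.2, 58.2 and 72.9 RPKM in EB cells, against 678, 651 and 688 RPKM in WT cells, a difference of -3.34 ± 0.15 (SE, adjusted p = 6.45e-10), the steepest of the family among those named. RPS28B and RPL18B fell with log2 differences of -2.28 ± 0.13 and -1.28 ± 0.075. Many of these genes are near-identical pairs, so the level of a single copy is uncertain. Proteasome genes ran the other way, with 27 of 31 higher (median 0.31). RPN2, a subunit of the regulatory particle, had 346, 354 and 345 RPKM in EB cells, against 212, 217 and 223 RPKM in WT cells, a difference of 0.75 ± 0.059 (SE, adjusted p = 1.45e-07), without overlap.

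Ethidium bromide is pumped out of yeast by multidrug transporters under the regulators Pdr1 and Pdr3, and it binds DNA, so both responses were examined. Of 15 measured drug resistance genes 8 rose and 5 fell (median 0.44). PDR15, an ABC transporter also driven by general stress, had 195, 168 and 145 RPKM in EB cells, against 11.6, 12.4 and 10.9 RPKM in WT cells, a difference of 3.82 ± 0.12 (SE, adjusted p = 6.23e-11). PDR5, the main multidrug transporter (chromosome XV, 619840 to 624375 of build R64), had 457, 481 and 443 RPKM in EB cells, against 220.4, 233 and 220.4 RPKM in WT cells, a difference of 1.10 ± 0.10 (SE, adjusted p = 6.61e-07). YOR1, an oligomycin transporter, had 169.7, 157 and 153 RPKM in EB cells, against 43.2, 43.7 and 39.5 RPKM in WT cells, a difference of 1.97 ± 0.10 (SE, adjusted p = 1.83e-09). All EB libraries were above all WT libraries for PDR15, PDR5 and YOR1. ICT1 and PDR16, both lipid-related targets of Pdr1, fell (-0.93 ± 0.09 and -0.51 ± 0.082). The transporter gene TPO1 fell as well (-0.40 ± 0.080), and PDR10 did not pass the test (0.22 ± 0.15, adjusted p = 0.198). Of the regulators, PDR1 fell slightly (-0.18 ± 0.070) and PDR3 rose (0.66 ± 0.096).

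Of 17 DNA damage response genes 11 rose and 4 fell. PHR1, photolyase, had 75.2, 73.8 and 73.7 RPKM in EB cells, against 21.7, 22.0 and 25.4 RPKM in WT cells, a difference of 1.72 ± 0.073 (SE, adjusted p = 5.46e-10). MAG1, a DNA glycosylase, had 50.2, 45.5 and 43.4 RPKM in EB cells, against 14.7, 17.1 and 16.1 RPKM in WT cells, a difference of 1.55 ± 0.10 (SE, adjusted p = 2.55e-08). HUG1, a small inhibitor of ribonucleotide reductase strongly induced by DNA damage, had 37.9, 28.4 and 32.7 RPKM in EB cells, against 9.38, 11.5 and 10.6 RPKM in WT cells, a difference of 1.63 ± 0.20 (SE, adjusted p = 9.61e-06). Each EB library exceeded each WT library in these 3 genes. RNR3, the damage-inducible large subunit of ribonucleotide reductase, stayed low, averaging 4.96 ± 0.335 RPKM in EB cells and 3.05 ± 0.419 RPKM in WT cells (SD, n = 3 each), a difference of 0.63 ± 0.17 (SE, adjusted p = 0.00514). RNR1, the large subunit made in dividing cells, had 21.7, 28.1 and 22.4 RPKM in EB cells, against 151, 148 and 149.7 RPKM in WT cells, a difference of -2.53 ± 0.11 (SE, adjusted p = 8.21e-10). RNR1 was lower in all EB libraries. DUN1, the kinase that controls ribonucleotide reductase, and RNR4, a small subunit of that enzyme, fell (-0.63 ± 0.11 and -0.44 ± 0.10).

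Nutrient and metal regulons each had their own pattern. Iron regulon genes rose in 17 of 25 cases, with 2 lower (median 0.60). FIT2, a cell wall protein that retains siderophore iron, had 25.7, 25.1 and 29.5 RPKM in EB cells, against 4.41, 5.40 and 5.21 RPKM in WT cells, a difference of 2.28 ± 0.15 (SE, adjusted p = 1.89e-08). TIS11, which degrades mRNAs of iron-using proteins, rose by 2.58 ± 0.094 and FET3, the iron oxidase, by 1.20 ± 0.068. Zinc-responsive genes fell in 6 of 9 cases, among them ZAP1, the zinc regulator (-0.80 ± 0.11), and IZH1, a membrane protein (-2.27 ± 0.089), while 2 rose, ZPS1, a protein of the cell surface (1.43 ± 0.45), and ADH4, an alcohol dehydrogenase (1.58 ± 0.36).

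Phosphate regulon genes fell in 11 of 16 cases, with 1 higher (2 without EB replicate 1 or without WT replicate 3; median -0.72). PHO84, the high-affinity phosphate transporter, had 124, 67.7 and 126 RPKM in EB cells, against 458, 446 and 416 RPKM in WT cells, a difference of -2.03 ± 0.20 (SE, adjusted p = 1.18e-06). VTC4, which makes polyphosphate, had 145, 105 and 128 RPKM in EB cells, against 256, 266 and 258 RPKM in WT cells, a difference of -0.99 ± 0.10 (SE, adjusted p = 1.48e-06). PHO89, a sodium-coupled phosphate transporter, rose instead (1.22 ± 0.30). Both PHO84 and VTC4 were lower in each EB library.

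Biosynthetic pathways were mixed. Purine synthesis genes rose in 11 of 14 cases, ADE13, adenylosuccinate lyase, by 1.16 ± 0.16. The 2 that fell work in salvage, AAH1, adenine deaminase, with 14.0, 15.6 and 15.5 RPKM in EB cells, against 138, 135 and 133 RPKM in WT cells and a difference of -3.03 ± 0.075 (SE, adjusted p = 2.34e-11), and APT1, adenine phosphoribosyltransferase (-1.15 ± 0.077). Of 27 amino acid genes 11 were higher and 10 lower, against 35.0% and 37.0% of all features. ARG4 of arginine synthesis was higher (1.16 ± 0.079) and LEU1 and LEU9 of leucine synthesis were lower (-1.26 ± 0.11 and -1.61 ± 0.11). GCN4, the activator of amino acid synthesis, fell (-0.68 ± 0.067).

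Of 23 ergosterol genes 8 were higher and 10 lower, against 35.0% and 37.0% of all features, so the share that rose was that of all features. ERG28 was higher (1.45 ± 0.10) and ERG25 lower (-0.96 ± 0.066). Of 14 hypoxic genes 4 rose, a smaller share than the 35.0% of all features, and 2 fell (median 0.079). CYC7, the cytochrome c isoform of low oxygen, had 1019, 755 and 959 RPKM in EB cells, against 45.7, 43.4 and 53.8 RPKM in WT cells, a difference of 4.29 ± 0.21 (SE, adjusted p = 2.06e-09). ANB1, the translation factor of low oxygen, averaged 13.1 ± 1.53 RPKM in EB cells and 2.55 ± 0.746 RPKM in WT cells (SD, n = 3 each), a difference of 2.09 ± 0.22 (SE, adjusted p = 2.51e-06). Their groups did not overlap. TIR1 and DAN4, cell wall mannoproteins, rose by 1.66 ± 0.21 and 0.93 ± 0.13, and the members that fell were HEM13, a heme synthesis enzyme (-0.20 ± 0.077), and OLE1, the fatty acid desaturase (-0.25 ± 0.075). The call of HEM13 was lost without any 1 of the EB or WT libraries other than EB replicate 3 (-0.15 to -0.20, adjusted p from 0.065 to 0.106). Of 5 glutamate genes 3 rose and 1 fell, with GDH2, which releases ammonium from glutamate, higher by 1.68 ± 0.15.

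Genes that mark the mating type and the haploid state were lower in part. Of 7 mating type a genes 4 fell (median -1.07), and of 10 haploid-specific genes 6 fell and 3 rose. The log2 differences of these 10 ran from -3.15 to 0.61, and the haploid-specific genes given below are ones that fell. MFA2, an a-factor pheromone gene, had 445, 452 and 567 RPKM in EB cells, against 1351, 1301 and 1412 RPKM in WT cells, a difference of -1.41 ± 0.23 (SE, adjusted p = 9.77e-05). MFA1, the second a-factor gene, had 479, 411 and 501 RPKM in EB cells, against 413, 386 and 429.8 RPKM in WT cells, and its difference of 0.24 ± 0.41 (SE, adjusted p = 0.614) did not pass the threshold. The MFA2 groups were separate and the MFA1 groups overlapped. HO (chromosome IV, 46271 to 48031 of build R64), the mating type switching endonuclease, transcribed in the mother cells of haploids, had 6.62, 9.04 and 7.23 RPKM in EB cells, against 84.0, 74.0 and 75.6 RPKM in WT cells, a difference of -3.15 ± 0.16 (SE, adjusted p = 2.17e-09). FAR1, an inhibitor of the cell cycle in response to pheromone, fell (-1.79 ± 0.094). HO was clearly lower in each EB library.

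The EB response was then set against that of the r0 cells of the other sets, which lack mitochondrial DNA. Their cultures were not labelled as given the drug, and how the r0 strains were made is not described here. The comparison was the difference (EB minus WT) minus (r0 minus WT) in a fit of 12 libraries per set. These differences passed the threshold for 3785 of 6759 features in the PUF3 set (56.0%), 4203 of 6763 in the Puf3-15A set (62.1%) and 4370 of 6757 in the INH1 set (64.7%). In the same direction in all 3 sets, 3097 of 6705 were called (46.2%), with the EB response above that of r0 for 1339 (20.0%) and below it for 1758 (26.2%). The 3 differences share the same EB and WT libraries, so counts over all 3 sets are a description and not 3 separate tests of the EB response. Without the INH1 set, 3321 of 6722 were called in both remaining sets (49.4%), 1469 above (21.9%) and 1852 below (27.6%). With the RPKM as deposited, the split of the calls in all 3 sets was 1005 above and 2040 below, and that of the INH1 set 1372 and 3181 in place of 1906 (28.2%) and 2464 (36.5%), where the median of all genes shifted by -0.1519 on the log2 scale. The sets and the drug cannot be told apart in these differences, because no set holds both EB and r0 cells.

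The 2 responses shared a direction in part. Between r0 and WT cells, 2148 (31.8%), 3429 (50.7%) and 4306 (63.7%) features were called in the PUF3, Puf3-15A and INH1 sets. Of the features called in EB cells, 27.2%, 50.9% and 62.6% were called in the same direction in r0 cells of the PUF3, Puf3-15A and INH1 sets, which were 61.9%, 72.6% and 70.9% of the r0 calls. In the opposite direction, 347, 332 and 412 features were called in both. Across 6725, 6721 and 6731 genes, Pearson's r between the EB and r0 differences was 0.451, 0.525 and 0.564, as a description over genes, which are not independent. The median absolute log2 difference was 0.502 under EB and 0.209, 0.215 and 0.28 in r0 cells.

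Mitochondrial gene lists differed in how their EB response compared with that of r0 cells. The ATP synthase subunits had medians of -0.82 under EB and -0.75, -0.67 and -0.74 in r0 cells of the PUF3, Puf3-15A and INH1 sets, and of 14 subunits 2 were called above and 4 below r0 in all 3 sets (2 and 4 without the INH1 set). Over all features, 20.0% were called above and 26.2% below r0 in all 3 sets. Mitochondrial ribosomal proteins rose less under EB, with large-subunit medians of 0.27 under EB and 0.70, 0.62 and 0.68 in r0 cells, and 28 of 41 were called below r0 in all 3 sets (28 without the INH1 set). Complex III fell less, with medians of -0.14 under EB and -0.61, -0.63 and -0.74 in r0 cells, and 9 of 9 subunits were called above r0 in all 3 sets (9 without the INH1 set). Tricarboxylic acid cycle and complex II genes, with a median of 0.56 under EB, had -0.20, -0.065 and -0.15 in r0 cells, and 10 of 16 were called above and 3 below r0 in all 3 sets (10 and 3 without the INH1 set). QCR6, a complex III subunit, averaged 617 ± 59.6 RPKM in EB cells and 819 ± 23.2 RPKM in WT cells (SD, n = 3 each), a log2 difference of -0.34 under EB, against -1.17, -0.84 and -1.07 in r0 cells.

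The largest excess over r0 lay outside the mitochondria. Ribosome biogenesis medians were -2.49 under EB and -0.26, -0.29 and -0.77 in r0 cells, and 95 of 95 genes were called below r0 in all 3 sets (95 without the INH1 set). Glycogen and trehalose genes had medians of 3.16 under EB and 0.51, 0.50 and 0.86 in r0 cells, with 16 of 18 above r0 in all 3 sets (16 without the INH1 set). Stress genes had medians of 2.36 under EB and 0.81, 0.93 and 1.09 in r0 cells, with 24 of 30 above r0 in all 3 sets (25 without the INH1 set). Of the hexose transporters, 6 of 8 were above and 1 below r0 in all 3 sets (6 and 1 without the INH1 set). The phosphate regulon had negative medians in both, of -0.72 under EB and -0.74, -0.92 and -0.34 in r0 cells. Drug resistance genes had medians of 0.44 under EB and 0.34, 0.61 and 0.60 in r0 cells. Of the 15 measured, 9, 12 and 13 were called higher in r0 cells of the PUF3, Puf3-15A and INH1 sets. In all 3 sets, 2 were above and 6 below r0 (2 and 6 without the INH1 set), against 20.0% and 26.2% of all features.

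Genes called in all 3 sets were ranked by the mean of their 3 differences. HXT6 was among the genes furthest above r0, with a log2 difference of 6.49 under EB and 0.28, -0.23 and -0.22 in r0 cells, the difference between the responses being 6.16, 6.69 and 6.67 (largest adjusted p of the 3 sets 2.15e-05). HXT4 had 5.06 under EB and -0.40, -1.67 and -2.01 in r0 cells, a difference of 5.46, 6.74 and 7.07 (largest adjusted p 9.31e-05). GSY1 had 5.21 under EB and 0.53, -0.95 and 0.35 in r0 cells, a difference of 4.67, 6.16 and 4.85 (largest adjusted p 0.00205). RCK1, EGO4, RGI1, HXT7 and SPG4 completed the 8 genes furthest above r0. Transporter and glycogen synthase genes thus stood well above their r0 response in each set.

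SSF1 was among the genes furthest below r0, with -4.45 under EB and -0.59, -0.26 and -1.15 in r0 cells, a difference of -3.83, -4.18 and -3.28 (largest adjusted p 2.27e-05). NOG2 had -4.21 under EB and -0.24, -0.093 and -0.82 in r0 cells, a difference of -3.95, -4.11 and -3.38 (largest adjusted p 1.10e-05). SLM6, TRM11, REI1, DBP8, MFA2 and HO completed the 8 genes furthest below by the mean over sets. The difference of MFA2 was -1.09 in the Puf3-15A set, so its rank rests on the other sets. For MFA2 and HO, the r0 differences were 1.97, -0.32 and 7.52 and 1.30, -0.22 and 4.54, and the mating type a markers moved with them between r0 and WT of the PUF3 and INH1 sets. Their part in these differences was not tested. PDR5 rose less under EB than in r0 cells, with 1.10 under EB and 2.02, 2.35 and 3.24 in r0 cells, a difference of -0.91, -1.24 and -2.14 (largest adjusted p 1.27e-05).

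**Figure D4:**
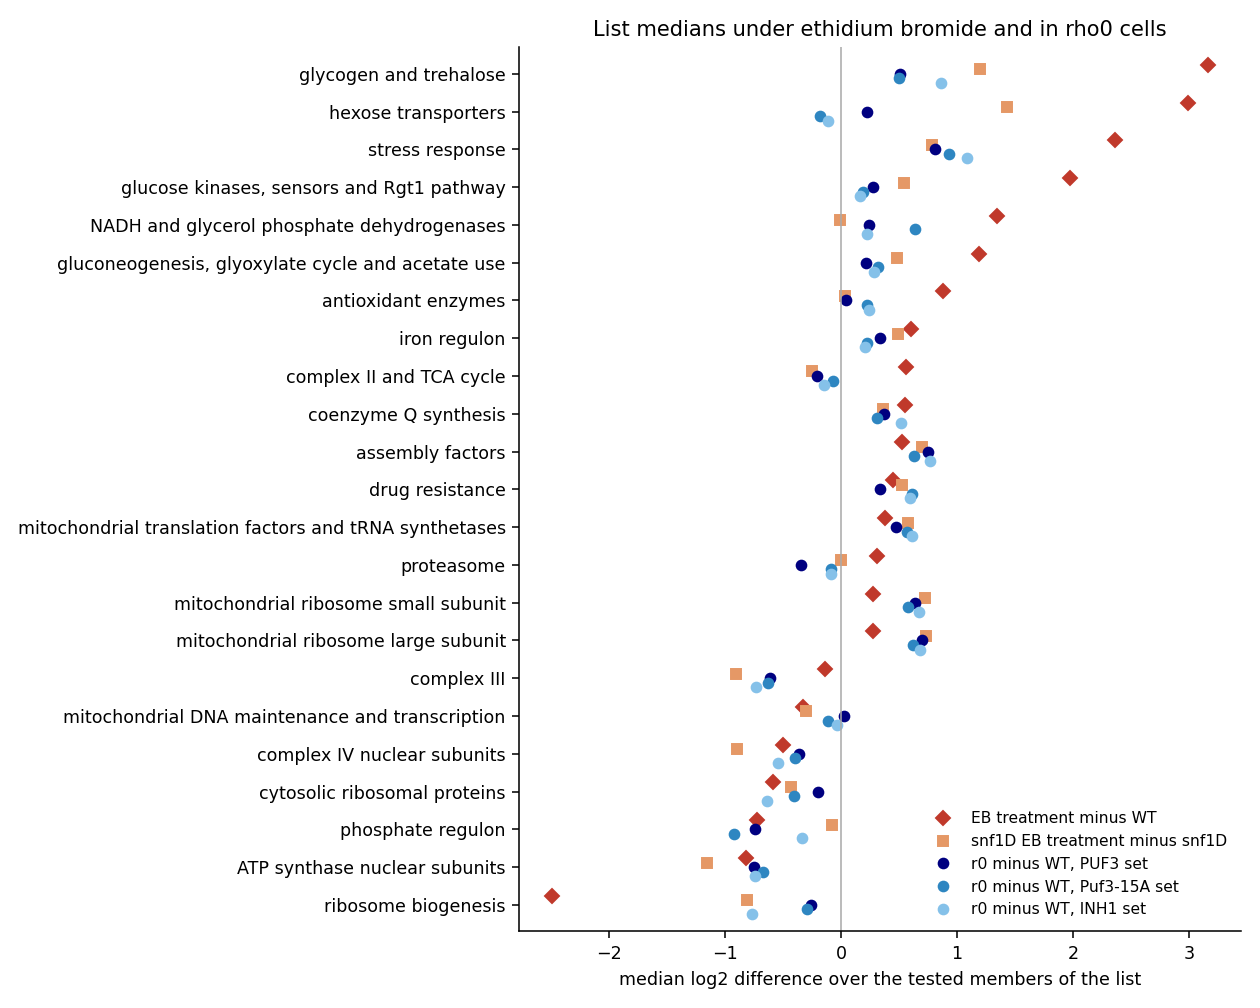
Median log2 difference over the tested members of 23 gene lists (rows) for EB treatment minus WT, snf1D EB treatment minus snf1D, and r0 minus WT of 3 sets. EB treatment of wild type cells stands apart from the other points in ribosome biogenesis (-2.49) and in glycogen and trehalose genes (3.16), and lies between the r0 points and the snf1D EB point for the ATP synthase (-0.82).

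Finally, the EB response of wild type cells was compared with that of snf1D cells, in which the kinase that relieves glucose repression is missing. The difference, (EB minus WT) minus (snf1D EB minus snf1D), passed the threshold for 3132 of 6776 features (46.2%), 1569 with the wild type response above that of snf1D (23.2%) and 1563 below it (23.1%). Within snf1D, 3992 features were called between treated and untreated cells (58.9%). With the RPKM as deposited the split of the difference was 1117 above and 2065 below, the median of all genes shifting by -0.1229. Mitochondrial transcripts were as scarce in the treated snf1D cells, which had 0, 0 and 1 reads on the 8 mitochondrial protein-coding genes, against 372, 437 and 433 in untreated snf1D cells. Since the snf1D libraries also had low mating type a markers, the deletion and other differences between these strains cannot be told apart.

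The groups that stood out against r0 cells stood out here too. Both comparisons start from the same EB and WT libraries, so this recurrence is not a separate line of evidence. Ribosome biogenesis genes had medians of -2.49 in wild type and -0.81 in snf1D cells, and the wild type response was below that of snf1D for 95 of 95. Glycogen and trehalose genes had medians of 3.16 in wild type and 1.20 in snf1D cells, with 16 of 18 above snf1D. Hexose transporters had medians of 2.99 in wild type and 1.43 in snf1D cells, with 6 of 8 above and 1 below. Of the complex III subunits 9 of 9, with medians of -0.14 in wild type and -0.90 in snf1D cells, and of the tricarboxylic acid cycle and complex II genes 14 of 16, with medians of 0.56 and -0.25, had a higher response in wild type. Large-subunit mitochondrial ribosomal proteins rose less in wild type, 0.27 against 0.73 in snf1D cells, with 34 of 41 below.

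PGM2, with a log2 difference of 5.08 in wild type cells, had 159, 192 and 159 RPKM in snf1D EB cells, against 66.3, 63.3 and 46.0 RPKM in snf1D cells, a difference between the responses of 3.61 ± 0.18 (SE, adjusted p = 8.48e-08). STR3, a cystathionine beta-lyase of sulfur metabolism, had 217, 247 and 247 RPKM in EB cells, against 11.5, 14.0 and 13.9 RPKM in WT cells, a difference of 4.15 ± 0.11 (SE, adjusted p = 3.90e-11). In snf1D, STR3 did not separate the treated from the untreated cells, with 24.7, 23.3 and 19.3 RPKM in snf1D EB cells, against 20.5, 23.8 and 22.7 RPKM in snf1D cells, and the responses differed by 4.21 ± 0.16 (SE, adjusted p = 2.53e-08). RCK1 had 7.43, 4.84 and 4.14 RPKM in snf1D EB cells, against 2.23, 1.29 and 0.553 RPKM in snf1D cells, and its responses differed by 4.52 ± 0.32 (SE, adjusted p = 5.55e-07). In all 3 genes wild type EB cells were higher than snf1D EB cells in each library. HXT6, SPG4, DDR2, LEE1, a zinc finger protein, and MRK1, a kinase of the glycogen synthase kinase 3 family, completed the 8 genes furthest above the snf1D response.

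NOG2 had 98.1, 72.4 and 83.6 RPKM in snf1D EB cells, against 173, 159 and 169.7 RPKM in snf1D cells, less of a fall than in wild type, the responses differing by -3.17 ± 0.18 (SE, adjusted p = 1.83e-07). HO had 1.52, 0.963 and 1.57 RPKM in snf1D EB cells, against 1.71, 1.00 and 0.913 RPKM in snf1D cells, so that it was near the filter in snf1D cells with or without the drug, and the difference between the responses of -3.21 ± 0.22 (SE, adjusted p = 4.77e-07) restates the fall in wild type. SLM6, REI1, DBP8, CGR1, BSC1 and PRM7 completed the 8 genes furthest below. PDR5 rose more without SNF1, with 1349.6, 1445 and 1708 RPKM in snf1D EB cells, against 269, 266 and 296 RPKM in snf1D cells, the responses differing by -1.27 ± 0.14 (SE, adjusted p = 1.77e-05). The treated snf1D libraries had more PDR5 than the treated wild type libraries in every case.

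**Figure D5:**
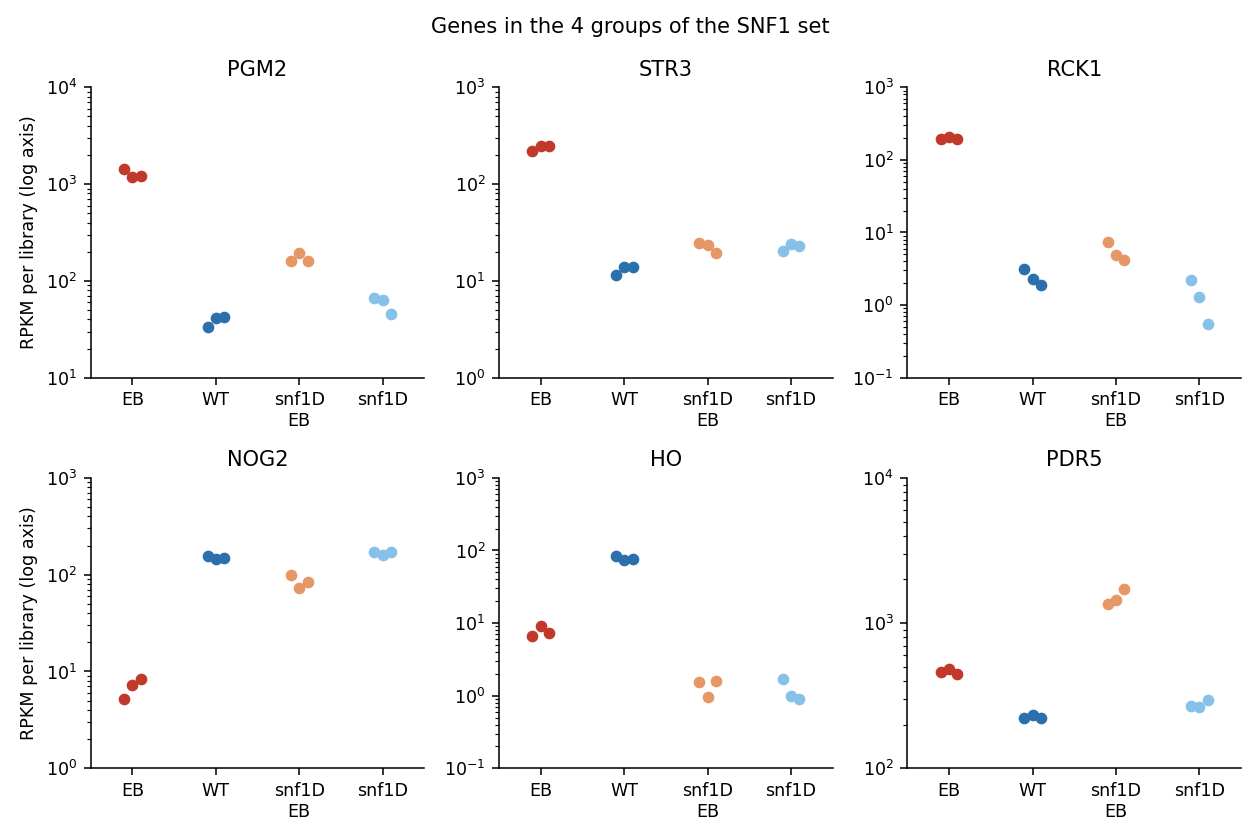
RPKM per library on a log axis for 6 genes in EB, WT, snf1D EB and snf1D cells, 3 libraries each. PGM2, STR3 and RCK1 were highest and NOG2 lowest in EB cells, HO was higher in WT than in any other group, and PDR5 was highest in snf1D EB cells.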

How the data were processed

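Per the series' design text, the 3 mRNA libraries of each group are biological replicates; no label says more on separate cultures. Each deposited file holds RPKM per feature as computed by the authors (7126 features, of which 6048 matched a RefSeq gene, assembly R64), and per the submitters' processing notes CASAVA 1.9, STAR 2.6.1a, featureCounts and edgeR 3.28.1 were used with build R64. Strand use in counting is not given in the sources used here. Read numbers were recovered from RPKM and gene length for 7115 features (at least 94.7% of values whole within 0.01) and served for the mitochondrial reads, the depth and 1 alternative.

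RPKM of the 12 libraries of a fit was rescaled by trimmed means (30% of ratios and 5% of levels trimmed), features with 1 RPKM in at least 3 libraries were kept, and limma 3.58.1 (R 4.3.3) was applied to log2(RPKM + 1) with a variance trend. The procedure was also run on simulated data with far fewer changed genes than were called here, so that run cannot show how the rescaling behaves under so broad a change. The 4 groups of the SNF1 set were fitted together; each comparison with r0 was a fit of its own. Gene names were taken by a rule: the 12 largest rises and falls, up to 4 genes of each list with the smallest p, members called against their list, some genes picked for their role, and the 8 genes furthest apart in each direction in each difference between responses, all with a mean log2 value of at least 3 where ranked by size; exceptions are stated, and 1 gene that the rule picks is not reported here. The members and the 48 lists were chosen with earlier results of these data known. Alternatives were other scalings, filters, pseudocounts of 0.1 and 5, fewer groups in the fit, limma-voom on recovered reads, a replicate block and leaving out libraries.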

Additional observations from a re-analysis of the deposited data

Results flagged for a closer look

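The EB response differed between wild type and snf1D cells for 3132 genes by the interaction term of the fit. Among the genes named, the difference on the log2 scale, wild type minus snf1D, was 4.81 for HXT6, 4.70 for DDR2, 4.52 for RCK1, 4.21 for STR3, 4.15 for LEE1, 3.91 for MRK1, 3.88 for SPG4 and 3.61 for PGM2. On the other side it was -3.21 for HO, -3.17 for NOG2, -3.03 for SLM6, -3.03 for BSC1, -2.98 for REI1, -2.95 for DBP8, -2.90 for PRM7, -2.81 for CGR1 and -1.27 for PDR5. HO was near the filter on low values in all snf1D libraries and had almost no room to fall there, so its difference restates the fall in wild type cells. The mating type a markers were low in both groups of snf1D libraries, and their part in these differences was not tested.

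The EB response also differed from the response of r0 cells in the same direction in all 3 sets for 3097 genes. The 3 differences share the same EB and WT libraries, so this count is a description. In the Puf3-15A set, whose r0 and WT libraries had like levels of mating type a markers, the difference on the log2 scale, EB response minus r0 response, was 6.74 for HXT4, 6.69 for HXT6, 6.16 for GSY1, 5.55 for HXT7, 5.41 for EGO4, 5.33 for RGI1, 4.91 for RCK1 and 4.84 for SPG4. It was 0.50 for QCR6. On the other side it was -4.18 for SSF1, -4.11 for NOG2, -4.01 for SLM6, -3.91 for REI1, -3.79 for TRM11, -3.58 for DBP8, -2.91 for HO, -1.24 for PDR5 and -1.09 for MFA2. Groups of 3 libraries are too small for the test of single outlying libraries, so none was run.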

How the results depend on the processing

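Counts over all genes kept within 1.5 times their value under every alternative run. The 4880 genes called between EB and WT cells ranged from 4603 to 5126 (4603 to 4676 without 1 library, 5126 with the EB and WT libraries alone, 4847 with limma-voom on recovered reads). The 3132 of the interaction with snf1D ranged from 2833 to 3182, and the 3097 of the differences from r0 in 3 sets from 2822 to 3213. Some alternatives were chosen after seeing the data, namely leaving out the INH1 set, the list counts under each setting, and leaving out both replicate 1 libraries of the PUF3 set, which gave 4395 in place of 3785 genes for that set.

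Of the genes named, DLD3 aside, 1 changed sign, CIT2 without EB replicate 1 (0.0273), and was called without EB replicate 3 (-0.62). ABF2 passed the threshold in 4 alternatives (-0.13 to -0.20) and MFA1 in 1, with only EB and WT libraries in the fit (0.24). The cause was not tested. Between EB and WT cells, the counts of list members given moved by over 1.5 times for complex III (5 lower without EB replicate 1) and, between 1 and 2 genes, for the minority direction of 5 other lists: TCA cycle with complex II, small-subunit mitochondrial ribosomal proteins, translation factors, phosphate and hypoxic genes.

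Same-numbered EB and WT libraries did not deviate together (correlations of 0.00217, -0.0447 and -0.0195). Differently numbered libraries had correlations of like size (-0.0248 to 0.0494). No pairing by number was thus seen, but these values cannot show whether the design paired the samples. With the replicate number as a block, 4892 genes were called between EB and WT cells and 3131 in the interaction. Recovered reads limit what can be said of mitochondrial protein-coding genes other than COX1, COX2 and OLI1, which had at most 9 reads in a WT library, and 3 libraries a group limit the precision of each difference.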

Other observations

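Median log2 differences between EB and WT cells of the 16 nuclear chromosomes ran from -0.0643 on chromosome XII to 0.2192 on chromosome I, over 5856 placed genes. The next highest were 0.1373 on chromosome VI and 0.1069 on chromosome IX. The share of genes called per chromosome lay between 67.1% and 80.6%. Within groups, 33 genes (0.544%) had a range over 1 on the log2 scale among the EB libraries and 29 (0.478%) among the WT libraries.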
